A study of Homo sapiens and Mus musculus with 21 samples.

Results

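The comparison described here is between mouse mesothelioma cells that lack Bap1 and mouse mesothelioma cells that keep it. Its 5 libraries of 21 in the series were taken by group label from the single mouse count table, and all 41214 annotated genes of that table were considered. The 3 BNC libraries have the genotype Bap1-/-;Nf2-/-;Cdkn2ab-/-, and the 2 NC libraries have the genotype Nf2-/-;Cdkn2ab-/-. Both groups therefore lack Nf2 and Cdkn2ab, and Bap1 is the only locus by which their labels differ. Both carry the tissue label pleura and a cell line label that says only that they are mesothelioma cells of the mouse. Strain, age, the driver of the deletions, and the number of animals or clones behind the libraries are not given in these labels. No treatment is named for them. The labels do not say whether the libraries of a group came from separate cultures or animals, so p-values measure the spread between these samples, which may be partly technical. The other libraries of the series are of human lines and are not analysed here.

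Mesothelioma is a cancer of the mesothelium, the cell layer that lines the pleura. BAP1 is a nuclear deubiquitinase that, with an ASXL partner, removes ubiquitin from histone H2A and so opposes the Polycomb repressive complexes. NF2 encodes merlin, an activator of the Hippo pathway that holds back YAP and TAZ, and Cdkn2a and Cdkn2b encode inhibitors of the cell cycle. These loci are often lost in human mesothelioma.

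Gene expression was measured by sequencing of poly-A RNA, and the table holds raw counts of reads per gene. The libraries held 13693927 to 22916482 counts, with 1.15% to 2.35% of counts on mitochondrial genes. Levels are given as CPM, the count of a gene relative to its library total scaled for composition, and in the order BNC 4, BNC 5 and BNC 6, then NC 4 and NC 5, which are the numbers in the labels. CPM is not adjusted for gene length, so levels are compared between libraries and not between genes. Group differences are BNC minus NC on the log2 scale with a standard error (SE), and adjusted p-values are from edgeR's quasi-likelihood test over the 12225 genes that passed a filter on low counts.

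The 3 BNC libraries were not equally far from each other. BNC 4 and BNC 5 were at least 2-fold apart at 1.24% of tested genes, the closest pair of all 10. BNC 6 was at least 2-fold apart from BNC 4 at 30.6% of genes and from BNC 5 at 29.1%, more than any BNC library was from any NC library, where the shares ran from 17.4% to 26.6%. NC 4 and NC 5 were 2-fold apart at 19.9% of genes, which is more than NC 4 was from BNC 5 (17.4%) or from BNC 4. By the same share BNC 6 was closer to NC 5 than to any other library, while NC 5 was closest to NC 4. Closeness between libraries thus did not follow the genotype throughout. The counts of BNC 4 and BNC 5 still differed beyond sampling noise, with a chi-square of 17.0 per degree of freedom, so they were kept as separate libraries. The group comparison is also given with the pair summed into 1 library and without BNC 6.

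**Figure D1:**
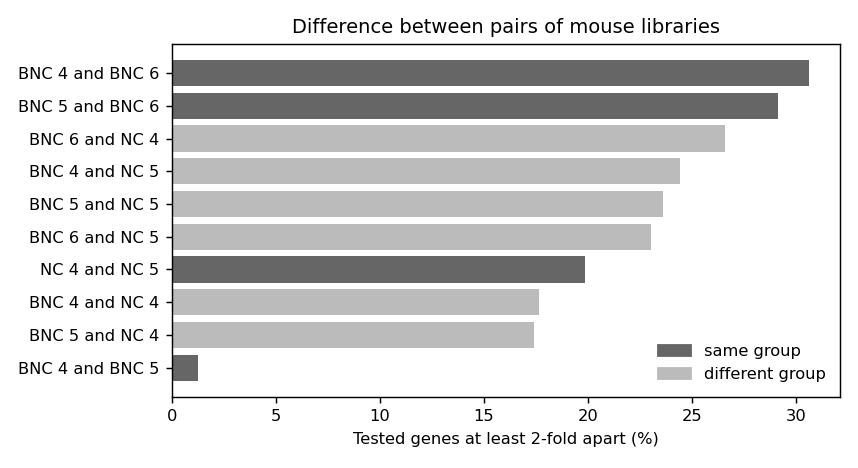
Horizontal bars give the percent of the 12225 tested genes that were at least 2-fold apart in each pair of libraries, dark for pairs within a group and light for pairs between groups. BNC 4 and BNC 5 share the shortest bar at 1.24%, and the 2 longest bars join BNC 6 to the other BNC libraries.

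Sex-linked transcripts also split the libraries across the genotypes. Xist, the RNA that silences an X chromosome in female cells, was at 0.249, 0.349 and 510 CPM in BNC and at 0.869 and 542 CPM in NC. Ddx3y, a Y-linked RNA helicase, was at 79.5, 72.8 and 0 CPM in BNC and at 86.7 and 0 CPM in NC. BNC 6 and NC 5 thus had Xist and no Ddx3y, while BNC 4, BNC 5 and NC 4 had the reverse, and the Y-linked Uty, Kdm5d and Eif2s3y followed the same split. Each genotype holds both classes, so the order can be read within each class. Of the 12225 genes, 2770 were higher in BNC, and 2666 lower, within each class separately. Unrelated orders in the classes would give counts of similar size, so these counts do not by themselves show a difference by genotype.

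The label of the cells was checked against mesothelial markers. Msln, which encodes mesothelin, a surface protein of mesothelial cells, was at 488, 561 and 0.351 CPM in BNC and at 519 and 880 CPM in NC. The 4 libraries other than BNC 6 were high, and BNC 6 was close to 0. Upk3b, a uroplakin of mesothelium, was at 39.3, 46.5 and 1.84 CPM in BNC and at 3.26 and 224 CPM in NC. Krt19, a simple-epithelial keratin, was at 109, 113 and 0.176 CPM in BNC and at 374 and 288 CPM in NC. In BNC 6 these 3 markers, Krt18 (0 CPM), Thbd (0 CPM), which encodes thrombomodulin, and Pdpn (0.220 CPM), which encodes podoplanin, were all near or at 0. Wt1, a transcription factor of mesothelium, was at 50.8, 38.2 and 130 CPM in BNC and at 8.54 and 109 CPM in NC, so it was highest in BNC 6. Calb2, which encodes the clinical marker calretinin, had 0 counts in all 5 libraries. Summed over the 24 mesothelial genes listed, the level was 1277, 1347 and 340 CPM in BNC and 1407 and 3776 CPM in NC. Between 2 and 5 members had no count in a given library.

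The summed level of fibroblast markers was highest in BNC 6, mostly through Col1a1, Col1a2 and Cxcl12. The 16 fibroblast markers summed to 2450, 2776 and 15025 CPM in BNC and to 6497 and 8157 CPM in NC. Col1a1, a chain of type I collagen, was at 434, 555 and 5716 CPM in BNC and at 1851 and 4276 CPM in NC. Vim, which encodes the intermediate filament vimentin, was at 5674, 6023 and 16005 CPM in BNC and at 5126 and 4498 CPM in NC. BNC 6 thus had the highest level of both genes, and NC 5 was second for Col1a1. Col1a2, the other chain of type I collagen, was at 6407 CPM in BNC 6, and Cxcl12, a chemokine of stromal cells, at 2541 CPM, while other markers on the list (Dcn and Ly6a, given with the matrix genes) were lowest there. In bulk RNA, fewer cells of a type and less RNA per cell cannot be told apart. Whether the missing mesothelial markers of BNC 6 contribute to the group differences was not tested, other than by leaving that library out.

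Markers of blood cells were low, and those of vessel cells were low in BNC and higher in NC 5. The 24 leukocyte markers summed to between 6.88 and 38.8 CPM, and Cd3e and C1qa had no count in any library. Ptprc, the common leukocyte antigen, had 1 count in NC 5 and none elsewhere. BNC 6 had the highest leukocyte sum, of which lysozyme (Lyz2) made up 755 counts. The 15 endothelial markers summed to 5.28, 6.18 and 8.83 CPM in BNC and to 11.9 and 108 CPM in NC. Cdh5, the cadherin of endothelium, had 1 count in BNC 6 and none elsewhere, and Emcn had none in any library. Other endothelial markers had reads. Kdr was at 2.64, 3.29 and 0.0439 CPM in BNC and at 9.84 and 49.8 CPM in NC. Tek had 28 counts in NC 5 and at most 11 elsewhere. Of 4 endothelial markers tested, 2 were lower without overlap and none higher, against 12.8% and 11.2% of all genes, with a median difference of -3.42.

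**Figure D2:**
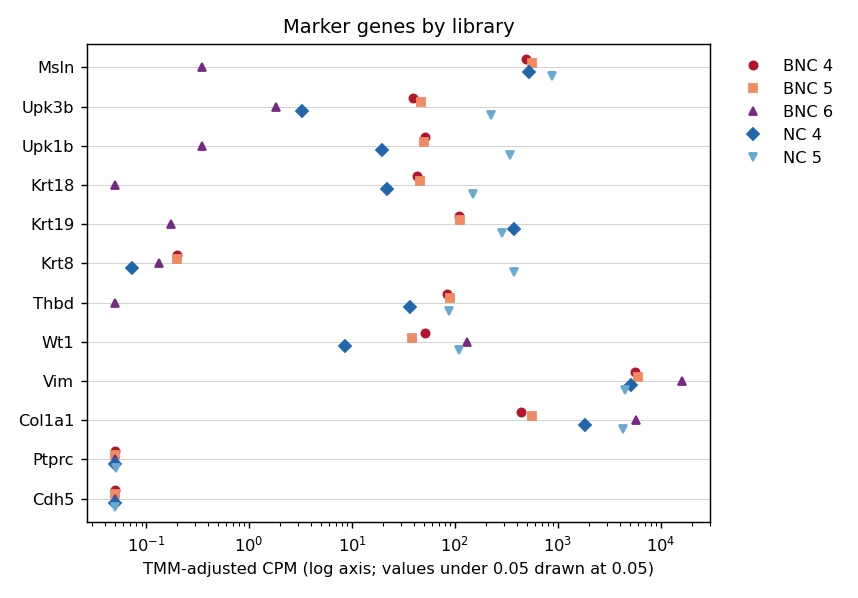
Each row is a marker gene and each point a library, on a log axis of composition-scaled CPM with values under 0.05 drawn at 0.05. BNC 6 lies apart from the other libraries for Msln, Krt18, Krt19 and Thbd, and NC 5 lies apart for Krt8; Ptprc and Cdh5 lie near the left edge in all 5 libraries.

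Bap1 lies on chromosome 14, at 31251450 to 31259944 of GRCm38. It was at 30.5, 33.3 and 44.1 CPM in BNC and at 60.2 and 62.0 CPM in NC. All 3 BNC libraries were lower than both NC libraries, with a difference of -0.76 ± 0.23 (SE) and an adjusted p of 0.62 by edgeR. The counts cover the whole gene, and the labels do not say which exons were deleted, so reads from the rest of the gene check neither the presence nor the absence of the deletion. Nf2, on chromosome 11 at 4765845 to 4849536, was at 181, 177 and 82.5 CPM in BNC and at 117 and 121 CPM in NC, with the NC libraries between the BNC libraries. Cdkn2a had 0, 2 and 5 counts in BNC and 0 and 6 in NC, and Cdkn2b had none in any library. Low counts of both Cdkn2 genes were thus shared by the groups, as their genotypes are. Ezh2, the methyltransferase of Polycomb repressive complex 2 (PRC2), was at 183, 170 and 145 CPM in BNC and at 249 and 95.1 CPM in NC. The groups overlapped, and the difference was -0.05 ± 0.43 (SE, edgeR adjusted p = 0.993).

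No gene differed between BNC and NC at an adjusted p under 0.05 (0% of 12225 in either direction; the smallest adjusted p was 0.465). At an unadjusted p under 0.05, edgeR gave 823 genes (6.73%), with 259 higher in BNC (2.12%) and 564 lower (4.61%). DESeq2, run as an alternative on the same genes, gave 89 higher and 213 lower at its adjusted threshold, 35 and 56 with BNC 4 and 5 summed, and 467 and 835 without BNC 6. The last 2 DESeq2 settings were chosen after seeing the data. With edgeR no gene passed in either of those arrangements. Its smallest adjusted p was 0.9997 with the pair summed and 0.0948 without BNC 6. At an unadjusted p under 0.05 edgeR gave 373 genes with the pair summed (3.08%, or 0.948% higher and 2.13% lower) and 2624 without BNC 6 (22.1%, or 8.47% higher and 13.6% lower). It gave 369 without BNC 4 and 359 without BNC 5. With 10 arrangements of 3 and 2 libraries, an exact permutation test of a single value cannot give a p below 0.1. The results below are therefore given as levels in each library, with the order of the groups, and "higher" or "lower" describes these libraries only.

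By that order, all BNC libraries lay above both NC libraries at 1371 genes (11.2%) and below both at 1562 (12.8%). Libraries in random order would give each of these orders in 1 of 10 arrangements. That rate is higher with fewer libraries and where 2 of them are alike, as BNC 4 and BNC 5 are. The shares are near that rate, so they do not by themselves show a difference by genotype. The nearest BNC and NC libraries were at least 2-fold apart at 81 genes higher in BNC (0.663%) and at 275 lower (2.25%). With BNC 4 and 5 summed, the shares at least 2-fold apart were 0.709% and 2.56%. Without BNC 6 they were 2.06% and 5.71%, with 28.7% of genes not overlapping in each direction. Leaving out NC 4 gave 3459 genes higher and 3779 lower without overlap (318 and 1231 with a 2-fold gap), and leaving out NC 5 gave 3328 and 3400 (445 and 525). Above a mean log2 CPM of 1, 54 were higher and 158 lower with a 2-fold gap.

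Single genes with the widest gaps, named first, were chosen after their values were seen, for the width of the gap between the nearest libraries of the groups. Angptl7, a secreted protein of the angiopoietin-like family, was at 12.2, 12.8 and 11.3 CPM in BNC and at 0.0724 and 0.252 CPM in NC. The 3 BNC libraries were close to each other and the nearest libraries were 32.1-fold apart, the widest gap of a gene higher in BNC. The difference was 6.11 ± 0.66 (SE, edgeR adjusted p = 0.465). DESeq2 gave this gene an adjusted p of 5.25e-15, and 3.31e-07 with BNC 4 and 5 summed. With that pair summed, edgeR gave an adjusted p of 0.9997. Epb4.1l3, a protein 4.1 family member that links membrane proteins to the cytoskeleton, was at 116, 104 and 162 CPM in BNC and at 0.290 and 7.27 CPM in NC. Kctd15, a member of the KCTD family, was at 20.3, 22.7 and 49.0 CPM in BNC and at 0.796 and 1.57 CPM in NC. Rap1gap, which inactivates the small GTPase Rap1, was at 18.0, 19.9 and 23.8 CPM in BNC and at 2.03 and 1.06 CPM in NC. The differences of Epb4.1l3, Kctd15 and Rap1gap were 5.05 ± 1.30, 4.68 ± 0.66 and 3.74 ± 0.44 (SE), and none of them had overlapping groups. Without NC 5 the difference of Epb4.1l3 was 8.74. Other genes with wide gaps were much higher in BNC 6 than in BNC 4 and 5. Gfra2, a receptor for neurturin, was at 3.39, 3.29 and 101 CPM in BNC and at 0.290 and 0.101 CPM in NC. Nkd2, an antagonist of Wnt signalling, was at 3.69, 3.79 and 22.8 CPM in BNC and at 0.362 and 0.151 CPM in NC. Mdga1, a cell-surface adhesion molecule, was at 6.63, 8.77 and 36.9 CPM in BNC and at 0.217 and 1.26 CPM in NC. For these 3 genes the size of the group mean rests on BNC 6, while BNC 4 and BNC 5 alone also lay above both NC libraries. Sobp had 20, 20 and 690 counts in BNC and 1 count in each NC library. Its ratio of 195, with a 95% counting interval of 53.8 to 1614, rests on BNC 6 and was 16.8 without it. The difference of Gfra2 was 7.55, and 4.11 without BNC 6.

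Genes lower in BNC had wider gaps and were more numerous. The filter favoured that order, since a gene near 0 in all BNC libraries was tested only if both NC libraries had reads. Ebf2, a transcription factor of the early B-cell factor family, had 3 counts over the BNC libraries and 340 over the NC libraries, a ratio of 212 with a 95% counting interval of 71.9 to 1033. Clip3, a microtubule-associated protein, had 2 and 263 counts, a ratio of 246 (67.4 to 2042). Rhbdf2, which encodes a rhomboid-like partner of the sheddase ADAM17, had 1 count over the BNC libraries and 39 and 537 counts in NC, a ratio of 1078 (193 to 42634) that was 178 without NC 5. The ratio of Ebf2 was 406 without BNC 6, and that of Clip3, with no BNC count left, was then at least 105. These genes were almost without reads in BNC 4, BNC 5 and BNC 6 alike, so they passed the filter on low counts through NC alone. Dsp, which encodes the desmosomal plaque protein desmoplakin, was at 0.449, 0.150 and 1.14 CPM in BNC and at 31.1 and 251 CPM in NC. Ank3, which encodes ankyrin-G, an adaptor between membrane proteins and spectrin, was at 0.150, 0.0997 and 0.220 CPM in BNC and at 8.69 and 25.0 CPM in NC. The nearest libraries were 25.1-fold apart for Dsp and 27.2-fold for Ank3, with differences of -7.89 ± 1.28 and -6.69 ± 0.71 (SE). Hsd17b11, a lipid-droplet dehydrogenase, was at 0.0499, 0.0997 and 0.0439 CPM in BNC and at 4.13 and 14.1 CPM in NC. Rarb, a retinoic acid receptor, was at 0.698, 0.598 and 0.176 CPM in BNC and at 6.44 and 6.87 CPM in NC. Both were low in all 3 BNC libraries, with no overlap. Ank3 and Hsd17b11 also passed the filter through NC alone, and Dsp cleared it in no BNC library other than BNC 6. The lower order of Ank3 and Hsd17b11 was thus set by the filter.

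Other genes lower in BNC were expressed in every library. They were also chosen after their values were seen, but not for the widest gaps. Mertk, Spp1, Lgmn and Igfbp7 were among the genes at the smallest edgeR adjusted p (0.465). Mertk, a receptor tyrosine kinase that mediates the uptake of dying cells, was at 2.09, 2.24 and 2.06 CPM in BNC and at 15.7 and 14.997 CPM in NC. Pros1, which encodes protein S, a ligand of Mertk, was at 4.39, 4.19 and 1.19 CPM in BNC and at 33.3 and 30.4 CPM in NC. The libraries within each group lay close together for Mertk, at a difference of -2.84 ± 0.31 (SE), and for Pros1 BNC 6 was the lowest, at -3.29 ± 0.61 (SE). Spp1, which encodes the matrix protein osteopontin, was at 21.2, 20.8 and 12.1 CPM in BNC and at 114 and 137 CPM in NC. Lgmn, a lysosomal asparaginyl protease, was at 14.6, 14.1 and 9.92 CPM in BNC and at 70.1 and 85.5 CPM in NC. Igfbp7, a secreted binding protein for insulin-like growth factors, was at 21.9, 19.4 and 14.0 CPM in BNC and at 94.0 and 136 CPM in NC. Their differences were -2.80 ± 0.31, -2.60 ± 0.26 and -2.64 ± 0.29 (SE), each with an edgeR adjusted p of 0.465. DESeq2 with BNC 4 and 5 summed, a setting chosen after seeing the data, gave adjusted p-values of 3.85e-07, 3.62e-07 and 1.96e-06. With the same pair summed, edgeR gave 0.9997 for each of the 3 genes.

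**Figure D3:**
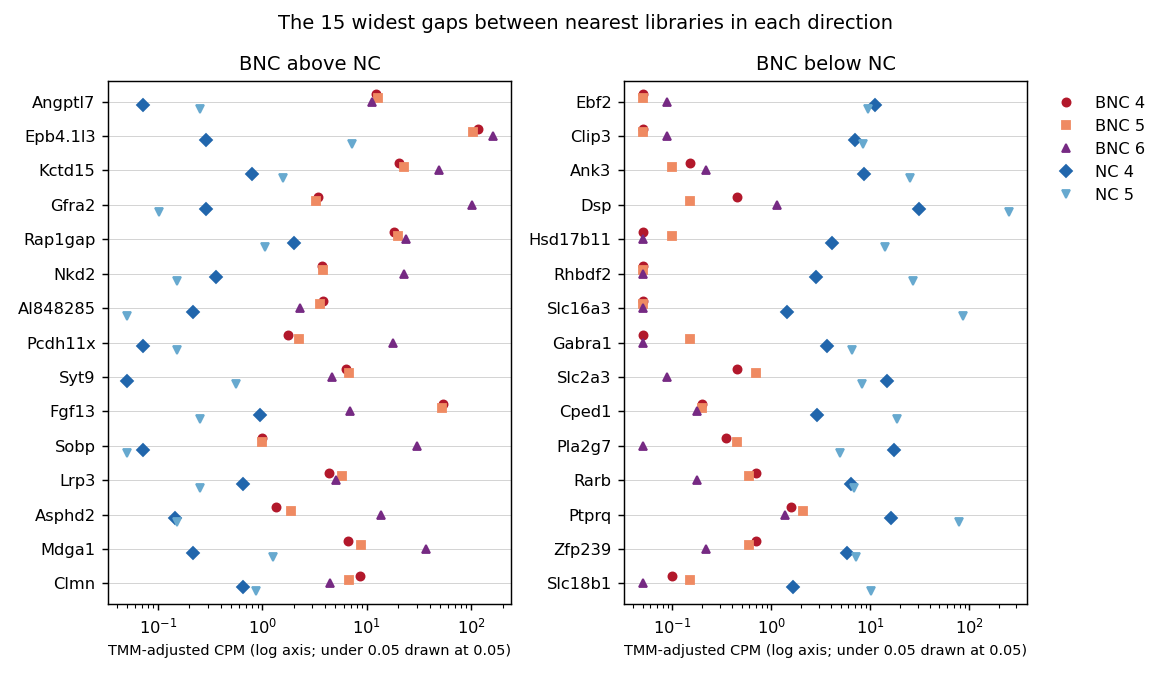
Each row is 1 of the 15 genes with the widest gap in each direction (above a mean log2 CPM of 1), with 1 point per library on a log axis of composition-scaled CPM, and values under 0.05 drawn at 0.05. On the left all 3 BNC points lie to the right of both NC points, with BNC 6 often farthest, and on the right the BNC points lie to the left of both NC points.

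Fibroblast growth factor (FGF) receptors are receptor tyrosine kinases that pass the signal of FGF ligands through the adaptors Frs2 and Frs3 to the MAP kinase pathway. Fgfr1, on chromosome 8 at 25513654 to 25575714, was at 34.9, 38.2 and 133 CPM in BNC and at 9.92 and 20.3 CPM in NC. All 3 BNC libraries lay above both NC libraries, and BNC 6 was far above the rest. The difference was 2.18 ± 0.79 (SE, edgeR adjusted p = 0.694), and 1.26 without BNC 6. Fgfr2 was at 17.1, 17.1 and 110 CPM in BNC and at 7.38 and 13.9 CPM in NC, again without overlap. Its difference of 2.17 ± 1.06 (SE) became 0.67 without BNC 6, so most of it rested on that library. In the table Fgfr2 spans 130162451 to 133123350 of chromosome 7, an interval that holds other genes such as Ate1 and Tacc2, so reads at shared positions make its count less certain. Fgfr3 was at 4.59, 5.09 and 11.9 CPM in BNC and at 27.3 and 7.22 CPM in NC, with BNC 6 above NC 5. Fgfr4 had 0, 1 and 0 counts in BNC and 0 and 3 in NC.

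Among the ligands, Fgf13, an intracellular member of the family that does not signal as a secreted ligand, was at 54.2, 52.6 and 6.94 CPM in BNC and at 0.941 and 0.252 CPM in NC. It was higher in every BNC library, here with BNC 6 the lowest of them, at a difference of 6.02 ± 1.32 (SE, edgeR adjusted p = 0.526). Fgf5 had 298 counts in BNC 6, 3 in NC 5 and none in the other libraries. Fgf2 and Fgf18 had overlapping groups. Of the 11 FGF genes tested, 3 were higher in BNC without overlap (Fgfr1, Fgfr2 and Fgf13) and 1, Frs3, was lower, and the median difference was -0.50 against 0.03 over all genes. Over all genes 11.2% were higher and 12.8% lower by that order, and without BNC 6, where the share was 28.7% in each direction, 3 of the 11 were higher and 3 lower. Of 24 output and feedback genes of the MAP kinase pathway tested, 1 was higher without overlap (Etv5) and 4 lower, and 7 of 22 were higher and 5 lower without BNC 6. Etv5, a transcription factor induced by the pathway, was at 29.0, 31.1 and 87.2 CPM in BNC and at 22.9 and 26.6 CPM in NC, a difference of 0.99 that was 0.27 without BNC 6. Spry1, a feedback inhibitor, was at 2.89, 3.14 and 12.5 CPM in BNC and at 12.7 and 12.7 CPM in NC, so BNC 6 was level with NC. Its difference of -1.04 was -2.08 without BNC 6.

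Sterol synthesis had the most members higher in BNC of the lists examined. The pathway builds cholesterol from acetyl-CoA and is switched on by the transcription factor SREBP-2, which Srebf2 encodes. Of 35 pathway genes and SREBP targets tested, 18 were higher in BNC without overlap and 2 lower, 13 higher and 1 lower at an unadjusted p under 0.05, and none by adjusted p or by a 2-fold gap. Over all genes the shares were 11.2% higher and 12.8% lower without overlap, and 2.12% and 4.61% at an unadjusted p under 0.05. The median difference was 0.46 against 0.03 over all genes. With BNC 4 and 5 summed, 19 were higher and 2 lower without overlap, and without BNC 6 24 were higher and 3 lower, where 28.7% of all genes lay in each direction. Srebf2 itself was at 326, 367 and 405 CPM in BNC and at 210 and 223 CPM in NC, a difference of 0.76 ± 0.18 (SE).

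The steps were as follows, named after their values were seen. Acat2, which joins 2 molecules of acetyl-CoA, was at 92.6, 104 and 75.2 CPM in BNC and at 40.8 and 43.3 CPM in NC. Hmgcs1, which makes HMG-CoA, was at 455, 428 and 424 CPM in BNC and at 216 and 189 CPM in NC. The 3 BNC libraries of Hmgcs1, BNC 6 included, lay within a narrow band above NC. The difference was 1.10 ± 0.17 (SE, edgeR adjusted p = 0.497). With BNC 4 and 5 summed, the adjusted p was 0.0141 by DESeq2 and 0.9997 by edgeR. Sqle, which oxidises squalene, was at 257, 240 and 242 CPM in BNC and at 117 and 130 CPM in NC. Msmo1, a sterol-4-alpha-methyl oxidase, was at 235, 229 and 201 CPM in BNC and at 104 and 84.1 CPM in NC. Nsdhl, which acts at the following step, was at 98.5, 94.6 and 75.4 CPM in BNC and at 38.7 and 31.8 CPM in NC. The differences of Sqle, Msmo1 and Nsdhl were 0.99 ± 0.16, 1.24 ± 0.19 and 1.35 ± 0.22 (SE), and in each the lowest BNC library was well above the highest NC library. Mvd, Idi1, Fdps, Fdft1, Lss, Cyp51, Hsd17b7, Sc5d, Pmvk and Stard4 were also higher without overlap. Idi1, an isomerase of the isoprenoid steps, spread more, at 382, 344 and 168 CPM in BNC and at 134 and 99.0 CPM in NC.

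The exceptions within the list were also clear. Insig2, which retains the SREBP escort protein in the endoplasmic reticulum, was at 25.4, 28.9 and 24.6 CPM in BNC and at 43.4 and 45.9 CPM in NC. It was thus lower in every BNC library, at -0.76 ± 0.19 (SE). Scd2, a fatty acid desaturase, was the other member lower without overlap. The groups overlapped for Insig1, Mvk, Dhcr7 and Fasn.

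**Figure D4:**
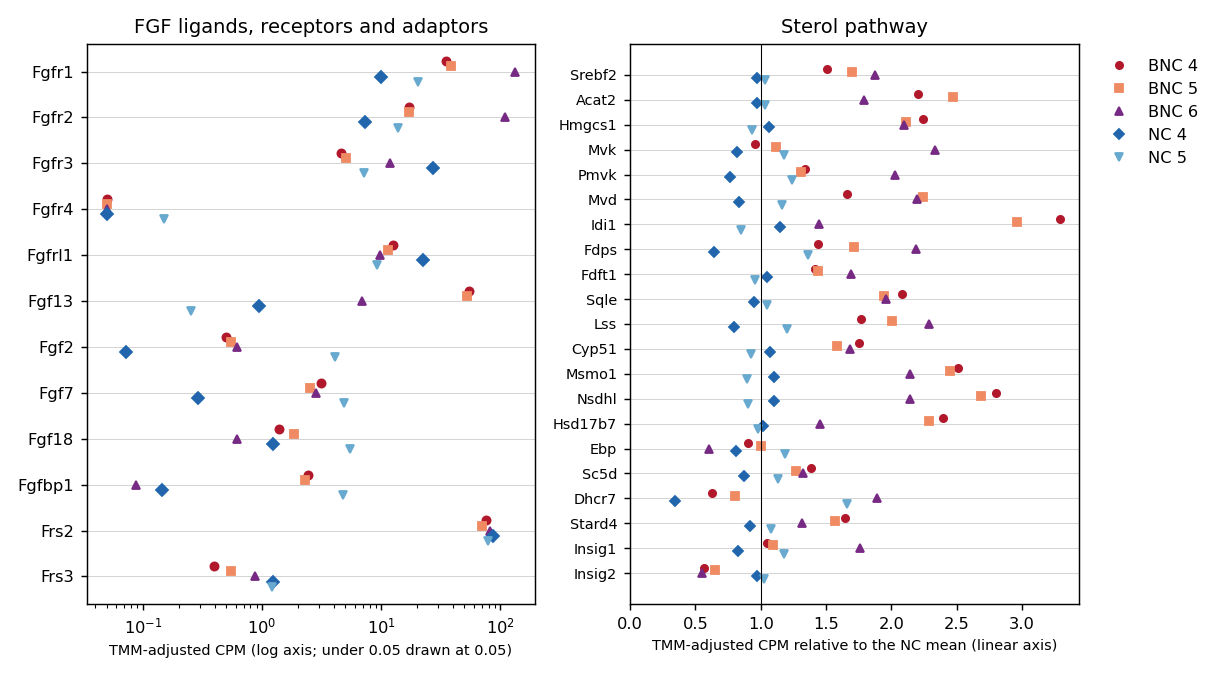
The left panel gives FGF genes on a log axis of composition-scaled CPM, with values under 0.05 drawn at 0.05, and the right panel gives sterol genes as CPM relative to the NC mean on a linear axis, with 1 point per library. Fgfr1 and Fgfr2 are highest in BNC 6, while Fgf13 is lowest there among BNC, and for Hmgcs1, Sqle, Msmo1 and Nsdhl all BNC points lie to the right of the NC points.

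Some mesothelial and epithelial genes were lower in every BNC library. Of 19 mesothelial genes tested, 5 were lower without overlap and 2 higher (Slpi and C3). The median difference was -0.999, the value of Msln, whose groups overlapped. Over all genes 12.8% were lower and 11.2% higher, so the count of higher members was near that of all genes. Without BNC 6, 5 of 18 (27.8%) were lower, near the share of all genes, and 2 were higher, against 28.7% each way. The median was then -0.60. Krt7, a simple-epithelial keratin, was at 1.30, 0.648 and 0.263 CPM in BNC and at 5.86 and 22.1 CPM in NC. Krt19 and Krt7 were low in BNC 6 in particular, but BNC 4 and BNC 5 also lay below both NC libraries. Sulf1, a sulfatase that edits heparan sulfate, was at 45.7, 44.4 and 24.9 CPM in BNC and at 121 and 156 CPM in NC, a difference of -1.85 ± 0.32 (SE). Cdh3 and Ildr2 were the other members lower without overlap. Of the 8 epithelial genes tested, 3 were lower without overlap, all with a 2-fold gap: Dsp, the plakophilin Pkp1 and the protease inhibitor Spint1. Over all genes 2.25% were lower with such a gap. Dsp (9, 3 and 26 counts in BNC 4, 5 and 6) and Spint1 (13, 2 and 0) each cleared the filter on low counts in only 1 BNC library. They were tested only because NC had reads, so the filter favoured their lower order. Pkp1, a second desmosomal plaque protein, was at 3.59, 3.74 and 1.10 CPM in BNC and at 14.3 and 7.68 CPM in NC. Both desmosomal genes were lower in each BNC library, and BNC 6 was not the lowest of the 3 for Dsp.

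Integrins are the receptors that bind cells to the matrix. Of 15 subunits tested, 5 were lower without overlap (Itga3, Itga4, Itga5, Itga7 and Itgav) and none higher, with a median difference of -0.94, against 12.8% and 11.2% of all genes. Without BNC 6, 8 of 15 were lower and 1 higher, against 28.7% each way. Itga3, which pairs with beta 1 to bind laminin, was at 194, 202 and 182 CPM in BNC and at 533 and 475 CPM in NC. The libraries were tightly grouped, with a difference of -1.39 ± 0.16 (SE, edgeR adjusted p = 0.465). With BNC 4 and 5 summed, the adjusted p was 0.00031 by DESeq2 and 0.9997 by edgeR. Itga5, a subunit of the fibronectin receptor, was at 225, 254 and 222 CPM in BNC and at 381 and 516 CPM in NC. Itgav, a subunit of the vitronectin receptor, was at 299, 278 and 290 CPM in BNC and at 392 and 396 CPM in NC. BNC 6 lay with BNC 4 and BNC 5 for these 3 subunits. Itga4 was low in all libraries, from 0.0499 to 2.32 CPM. It passed the filter on low counts through NC alone, so its place among the 5 lower subunits was set by the filter.

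The counts of matrix genes depended on BNC 6. Of 21 collagen genes tested, 2 were higher without overlap and 4 lower, with a median difference of 0.15, against 11.2% and 12.8% of all genes. Without BNC 6, 2 were higher and 11 lower, with a median of -0.88, against 28.7% of all genes in each direction. Col6a3, a chain of the microfibrillar type VI collagen, was at 0.947, 1.15 and 2.94 CPM in BNC and at 7.82 and 15.1 CPM in NC. Dcn, which encodes the small proteoglycan decorin and is also a fibroblast marker, was at 2.59, 2.19 and 1.54 CPM in BNC and at 9.19 and 18.9 CPM in NC. Of 10 fibroblast markers tested, 4 were lower (Dcn, Col3a1, Gsn and Ly6a) and none higher, although the summed level was highest in BNC 6. Their median difference was -0.71. Without BNC 6, 8 of 9 were lower and none higher, against the 28.7% of all genes, and the median was -2.56. Ly6a, the surface antigen Sca-1, was at 6.58, 10.02 and 1.45 CPM in BNC and at 88.7 and 64.2 CPM in NC. BNC 6 was thus the lowest library for Dcn and Ly6a and the highest for Col1a1.

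Both genotypes lack Nf2, and of 26 targets of YAP and TEAD tested, 3 were higher in BNC without overlap (Fjx1, Asap1 and Myof) and 1 lower, against 11.2% and 12.8% of all genes. Ctgf, a secreted matricellular protein often used as a readout of YAP, was at 251, 243 and 195 CPM in BNC and at 548 and 682 CPM in NC, a difference of -1.42 ± 0.21 (SE). Fjx1, which encodes a Golgi-resident secreted protein, was at 6.83, 5.73 and 7.51 CPM in BNC and at 1.45 and 1.16 CPM in NC, a difference of 2.35 ± 0.43 (SE). These targets thus lay on opposite sides, and the median difference of the list was 0.06. Without BNC 6, 6 were higher and 8 lower, against 28.7% each way, with a median of -0.29. Of 37 receptor tyrosine kinases and ligands outside the FGF family, 3 were higher without overlap and 7 lower, against 11.2% and 12.8% of all genes. Without BNC 6, 5 of 32 were higher and 16 lower, against 28.7% each way. Tgfa, a ligand of the EGF receptor, was at 16.4, 17.2 and 6.85 CPM in BNC and at 34.4 and 38.7 CPM in NC. Erbb2, a receptor of the same family, was at 30.7, 33.3 and 39.3 CPM in BNC and at 47.3 and 53.3 CPM in NC. Vegfa, the growth factor of vessels, was higher, at 161, 167 and 144 CPM in BNC and at 67.4 and 63.5 CPM in NC, while its receptor Kdr was lower, at 2.64, 3.29 and 0.0439 CPM in BNC and at 9.84 and 49.8 CPM in NC. The difference of Vegfa was 1.27 ± 0.17 (SE, edgeR adjusted p = 0.497). With BNC 4 and 5 summed, the adjusted p was 0.00856 by DESeq2 and 0.9997 by edgeR.

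Polycomb complexes keep developmental genes silent, and PRC1 places the ubiquitin mark that BAP1 removes, while PRC2 methylates histone H3. None of 11 PRC2 genes tested lacked overlap in either direction. Of 22 PRC1 genes, 3 were higher and 2 lower without overlap, near the 11.2% and 12.8% of all genes. Without BNC 6, 4 of the PRC2 genes were lower and none higher, and 4 of the PRC1 genes were higher and 6 lower, against 28.7% each way. Cbx7, a PRC1 subunit that reads the methyl mark, was at 0.897, 0.648 and 0.746 CPM in BNC and at 8.25 and 1.82 CPM in NC. Pcgf2, a PRC1 ring-finger subunit, was at 38.1, 37.8 and 31.0 CPM in BNC and at 22.6 and 21.3 CPM in NC. Of the 12 genes of the BAP1 complex and its partners tested, Asxl1 and Ogt were higher without overlap and Bap1 lower. Ogt, a glycosyltransferase that associates with BAP1, was at 190, 195 and 181 CPM in BNC and at 164 and 111 CPM in NC. Asxl1, a cofactor that BAP1 needs for activity, was at 148, 156 and 148 CPM in BNC and at 147 and 100 CPM in NC, so that BNC and NC 4 were nearly level.

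HOX genes, the homeobox factors of body patterning and classic Polycomb targets, were mostly lower where the groups separated. Of 24 tested, 10 were lower without overlap, 5 of them with a 2-fold gap, and 1 was higher (Hoxa2), with a median difference of -0.21. Of those 5, Hoxa6, Hoxa9 and Hoxc4 had at most 9 counts in any BNC library and passed the filter on low counts through NC alone. Their lower order in BNC was thus set by the filter. Over all genes 12.8% were lower, 2.25% with a 2-fold gap, and 11.2% higher. Without BNC 6, 11 of 24 were lower and 4 higher, against 28.7% each way. With BNC 4 and 5 summed, 11 of 23 were lower and 1 higher. In the HOXA cluster Hoxa4, Hoxa5, Hoxa6, Hoxa7, Hoxa9 and Hoxa10 were lower. Hoxa5 was at 2.44, 2.14 and 1.54 CPM in BNC and at 5.86 and 6.97 CPM in NC. Hoxa10 was at 2.69, 2.29 and 0 CPM in BNC and at 7.89 and 17.5 CPM in NC. Both were below NC in every BNC library, and BNC 6 had no Hoxa10 count. Hoxa6 had no count in BNC and 31 over the NC libraries, which is at least 19.3-fold lower in BNC, taking a floor of 3 counts over the group. Hoxc4 was at 0.150, 0.150 and 0 CPM in BNC and at 3.26 and 3.94 CPM in NC, a difference of -5.11 ± 1.12 (SE, edgeR adjusted p = 0.526). Hoxa2, at the other side, was at 5.58, 5.19 and 4.26 CPM in BNC and at 3.91 and 1.57 CPM in NC. HOX genes lie close together and have antisense transcripts, and no source used here gives the strand setting of the counting, so reads of neighbours on opposite strands may not be separated.

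Of 49 other developmental transcription factors tested, 9 were higher without overlap and 7 lower, against 11.2% and 12.8% of all genes, so the lower share was near that of all genes. Without BNC 6, 16 of 44 were higher and 9 lower, against 28.7% each way. Irx2, an Iroquois homeobox factor, was at 19.9, 19.99 and 21.9 CPM in BNC and at 9.34 and 9.75 CPM in NC. Irx3, of the same family, was at 5.93, 4.74 and 16.7 CPM in BNC and at 0.579 and 2.02 CPM in NC, and Irx5 was also higher. The 3 Iroquois genes were thus above NC in all BNC libraries. Foxa1, a pioneer factor, was at 2.24, 1.25 and 1.01 CPM in BNC and at 0.145 and 0.252 CPM in NC. Gata2, Gata3 and Gata6 were lower without overlap.

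Amino acid and redox genes included a gene with a wide gap. Slc7a11, which encodes the cystine importer that feeds glutathione synthesis, was at 87.2, 80.5 and 76.7 CPM in BNC and at 12.02 and 26.1 CPM in NC. The BNC libraries were close together and the nearest libraries were 2.93-fold apart, with a difference of 2.09 ± 0.39 (SE, edgeR adjusted p = 0.497). With BNC 4 and 5 summed, the adjusted p was 0.0263 by DESeq2 and 0.9997 by edgeR. Slc3a2, its heavy-chain partner, was at 316, 319 and 437 CPM in BNC and at 162 and 256 CPM in NC. Atf4, the transcription factor that induces both during amino acid shortage, was at 388, 393 and 653 CPM in BNC and at 308 and 329 CPM in NC. Of 31 genes of the ATF4 and unfolded protein responses tested, 5 were higher without overlap (Atf4, Asns, Slc7a11, Slc3a2 and Cebpb) and none lower, with a median difference of 0.34. The higher share of 16.1% lay near the 11.2% of all genes. Without BNC 6, 7 were higher and 5 lower, against 28.7% each way, with a median of 0.07. The differences of Atf4 and Asns, 0.59 and 0.54, were then 0.29 and 0.25. Of 18 genes of ferroptosis, cystine and iron handling, 2 were higher (Slc7a11 and the ferritin light chain Ftl1) and 3 lower, against 11.2% and 12.8% of all genes. Without BNC 6, 9 were higher and 3 lower, against 28.7% each way. Aifm2, a suppressor of ferroptosis also known as FSP1, was at 5.38, 6.28 and 6.81 CPM in BNC and at 10.9 and 20.4 CPM in NC.

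Of 33 genes of hypoxia and glycolysis tested, 2 were higher without overlap (Vegfa and Ndrg1) and 7 lower, against 11.2% and 12.8% of all genes. Without BNC 6, 6 of 32 were higher and 10 lower, against 28.7% each way. Slc2a3, the glucose transporter GLUT3, was at 0.449, 0.698 and 0.0878 CPM in BNC and at 14.7 and 8.28 CPM in NC, a difference of -4.79 ± 0.90 (SE). Slc16a3, the lactate exporter MCT4, had no count in BNC and 1745 over the NC libraries, nearly all in NC 5, which is at least 1088-fold lower in BNC by the same floor and at least 30.4-fold without NC 5. Its levels in NC were 1.45 and 87.1 CPM, so the size of the ratio rests on NC 5. Slc16a3 passed the filter on low counts through NC alone, and Slc2a3 cleared it in only 1 BNC library. The filter thus favoured their lower order. Pdk1, a kinase that inhibits pyruvate dehydrogenase, was at 4.69, 4.59 and 5.97 CPM in BNC and at 13.4 and 14.3 CPM in NC. Bnip3, a mitophagy receptor induced by hypoxia, was at 7.13, 5.78 and 10.6 CPM in BNC and at 20.3 and 19.5 CPM in NC. Ndrg1, a stress-responsive gene, was higher, at 30.4, 30.1 and 117 CPM in BNC and at 6.95 and 14.2 CPM in NC, a difference of 2.48 that was 1.499 without BNC 6. Pfkl, Pfkfb4 and Ankrd37 were the other members lower without overlap.

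Immune response genes were spread widely over the NC libraries. Of 28 interferon-stimulated genes tested, 4 were lower without overlap and 2 higher, near the 12.8% and 11.2% of all genes, and the median difference was -0.84. Without BNC 6, 14 of 23 were lower and 2 higher, with a median of -1.42, against 28.7% of all genes each way. Ddx58, which encodes the RNA sensor RIG-I, was at 9.22, 8.18 and 12.3 CPM in BNC and at 18.7 and 38.2 CPM in NC. Bst2, which encodes the antiviral protein tetherin, was at 1.35, 1.40 and 0.351 CPM in BNC and at 1.88 and 22.8 CPM in NC. NC 5 was the high library for both, and NC 4 was close to BNC 4 and BNC 5 for Bst2. Of 17 antigen presentation genes, 4 were lower without overlap and none higher, against 12.8% and 11.2% of all genes. Without BNC 6, 7 of 15 were lower and 2 higher, against 28.7% each way. H2-M3, a class Ib molecule that presents formylated peptides, was at 2.89, 2.59 and 2.63 CPM in BNC and at 12.7 and 7.62 CPM in NC. Cd274, which encodes the checkpoint ligand PD-L1, was at 0.0499, 0.150 and 0 CPM in BNC and at 1.30 and 1.31 CPM in NC. Both NC libraries were level for Cd274, although at few counts. Cd274 passed the filter on low counts through NC alone, so its lower order in BNC was set by the filter.

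Imprinted genes are expressed from 1 parental allele, and 14 were tested. Peg3, a paternally expressed zinc finger gene, was at 0.0997, 0.0499 and 24.4 CPM in BNC and at 196 and 111 CPM in NC. All BNC libraries were below NC, but BNC 6 was far above BNC 4 and BNC 5, and the difference of -4.23 was -10.9 without BNC 6. Ndn, which encodes necdin, had 3 counts over the BNC libraries and 17 and 67 counts in NC, a ratio of 52.4 with a 95% counting interval of 17.3 to 259. Leaving out 1 library moved that ratio to between 25.8 (without NC 5) and 107 (without BNC 5). Ndn passed the filter on low counts through NC alone, so its lower order in BNC was set by the filter. Plagl1 and Airn were higher without overlap, so 2 of the 14 lay in each direction, against 11.2% and 12.8% of all genes. Without BNC 6, 5 of 12 were higher and 5 lower, against 28.7% each way.

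For every list in this paragraph, the shares over all genes were 11.2% higher and 12.8% lower without overlap. Without BNC 6 they were 28.7% each way. Of 45 proliferation genes tested, 5 were higher without overlap (Mcm4, Cdt1, Cdc45, Bub1b and Kif20a) and none lower, with a median difference of 0.10. That share is at the background of 11.2%, and without BNC 6 11 were higher and 6 lower. Of 31 genes of homologous recombination repair, 2 were higher and none lower, and without BNC 6 9 were higher and 5 lower. Of 28 p53 targets and cyclin-dependent kinase inhibitors, 1 was higher and 4 lower, and without BNC 6 4 were higher and 10 lower. Among 17 death receptor pathway genes, 5 were lower without overlap, among them Tnfrsf10b, Fas, Casp6 and Tnfrsf22, and none higher, against 12.8% and 11.2% of all genes. Without BNC 6, 8 of the 17 were lower and 1 higher, against 28.7% each way. Ccnd1, which encodes cyclin D1, was at 1040, 1003 and 836 CPM in BNC and at 1112 and 1148 CPM in NC, lower in BNC by less than the distance between BNC libraries. Of the remaining lists, 20 immediate early genes had Jun and Zfp36 higher without overlap, near the 11.2% of all genes, and a median difference of 0.75. Without BNC 6, 6 of 18 were higher and the median was 0.16. The 26 Wnt ligands, receptors and antagonists had 2 members higher and 6 lower, and the 26 genes of BMP and TGF-beta feedback had 4 in each direction. Without BNC 6, 4 of 24 Wnt genes were higher and 12 lower, and 8 of 24 feedback genes were higher and 7 lower. Of 21 NF-kB genes and cytokines, Rel and Relb were higher and none was lower, and without BNC 6 9 of 19 were higher and none lower. Of 32 mesenchymal genes, 3 were higher and 5 lower, and 5 and 12 without BNC 6. Of 18 calcium release genes 1 was lower, and without BNC 6 none was higher and 6 were lower. Of 14 genes of arginine and polyamine metabolism 1 was higher and 1 lower, and 4 and 6 without BNC 6. Paox, a polyamine oxidase, was the gene of that list lower with all libraries, at 1.60, 0.947 and 0.176 CPM in BNC and at 5.07 and 6.31 CPM in NC.

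**Figure D5:**
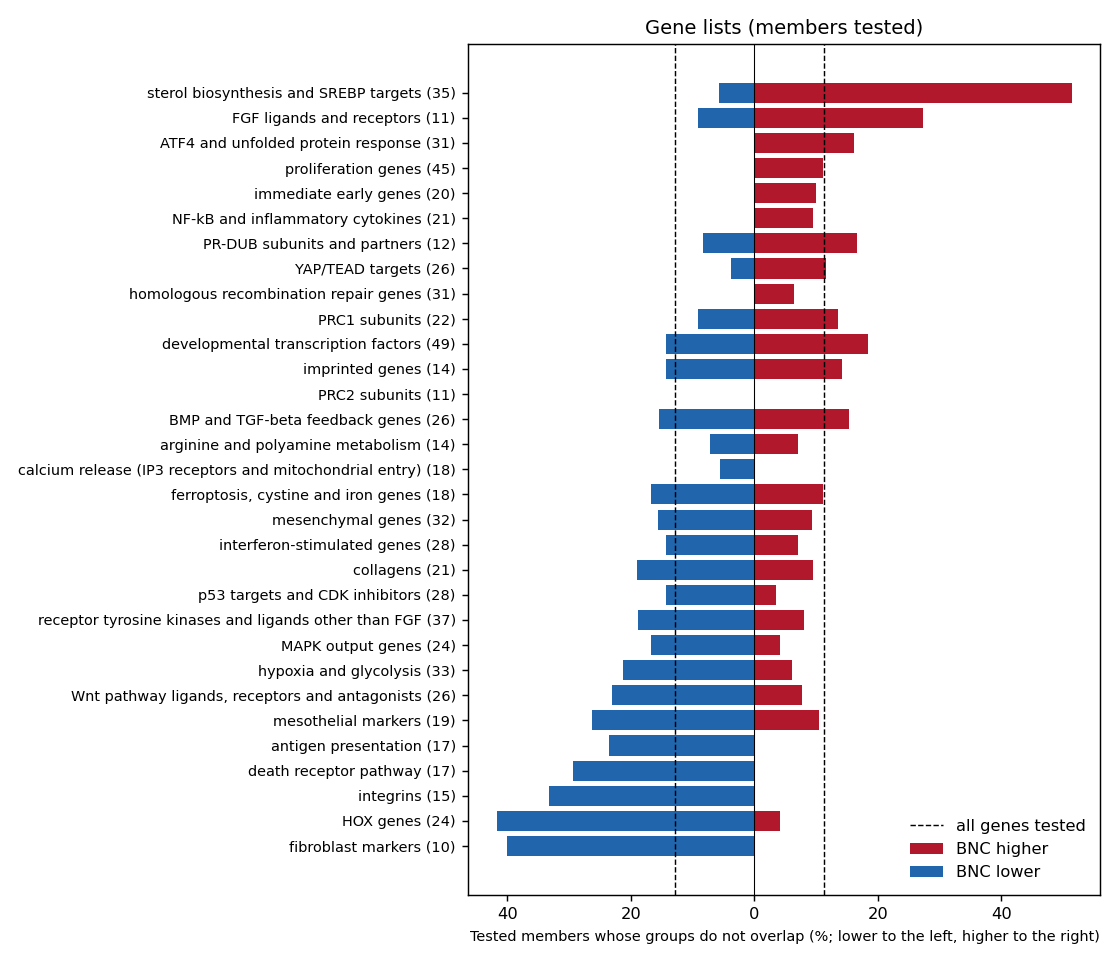
For each gene list with at least 10 tested members (number in brackets), bars give the percent of members whose BNC libraries all lie above both NC libraries (to the right) or below both (to the left), and dashed lines give the same over all 12225 genes, 11.2% and 12.8%. The sterol list extends farthest to the right, with 18 of 35 members, and the HOX list farthest to the left, with 10 of 24.

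Genes that set BNC 6 apart from BNC 4 and BNC 5 were counted among 9094 genes above a mean log2 CPM of 3. At a 4-fold gap, 301 were higher in BNC 6 and 308 lower. The 5 highest by size were Pcsk6, Xist, Grb10, Pappa2 and Fbn2. Pcsk6, a proprotein convertase, was at 0.199, 0.150 and 372 CPM in BNC and at 0.869 and 14.0 CPM in NC. Grb10, an imprinted adaptor of insulin receptor signalling, was at 0.150, 0.249 and 394 CPM in BNC and at 0.145 and 173 CPM in NC. High Grb10 was thus shared with NC 5, the other library with Xist. Pappa2, a protease of insulin-like growth factor binding proteins, was at 0.299, 0.449 and 531 CPM in BNC and at 0 and 2.27 CPM in NC. Fbn2, which encodes a fibrillin, was at 0.150, 0.199 and 238 CPM in BNC and at 0.290 and 1.67 CPM in NC. The 5 lowest were Prl, Efemp1, Gsta4, Msln and Thbd. Prl, which encodes the hormone prolactin, was at 595, 578 and 0 CPM in BNC and at 703 and 2.32 CPM in NC. BNC 4, BNC 5 and NC 4 thus had it and BNC 6 and NC 5 had little or none. Efemp1, a matrix protein of the fibulin family, was at 618, 530 and 0.132 CPM in BNC and at 831 and 841 CPM in NC, so that BNC 6 alone was low. Gsta4, a glutathione transferase, was at 306, 296 and 0.0878 CPM in BNC and at 265 and 38.1 CPM in NC.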

How the data were processed

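Poly-A RNA libraries (TruSeq mRNA kit) from RNA with an integrity number above 6.5 were read on an Illumina HiSeq as single-end reads of 65 bases, per the labels' protocols. The authors deposited raw counts per Ensembl gene for 5 mouse libraries, with gene names and coordinates in the table. TopHat2 2.0.12, TopHat, HTSeq and DESeq2, and the builds mm10 and GRCm38, are named without role or order per the submitters' processing notes. The annotation release, the strand setting and the treatment of reads with several matches are not given in the sources used here.

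Library totals, in counts, were 20626601, 20318006 and 22916482 for BNC 4, 5 and 6 and 13693927 and 19190441 for NC 4 and 5. Genes were filtered with filterByExpr (12225 of 41214 kept), scaled by TMM and tested with edgeR 4.0.16 (quasi-likelihood F test, limma 3.58.1, R 4.3.3) with Benjamini-Hochberg adjustment at 0.05. The filter asks for reads in 2 libraries, so a gene with reads in a single library was not tested. A gene near 0 in all BNC libraries passed only if both NC libraries had reads, so its lower order in BNC was set by the filter. A gene near 0 in both NC libraries needed reads in only 2 of the 3 BNC libraries. SE is the log2 difference divided by the root of F. The typical spread of replicates (square root of the common dispersion) was 0.539. Library order used log2 CPM with a prior count of 2. Counting intervals (95%, exact binomial) and floors of 3 counts cover counting error only. The test was checked on simulated counts.

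The members and the 37 gene lists were chosen with earlier results of these data known. Lists were described by counts and medians and not tested. Names absent from the table were Epop, Pali1, Ezhip, Ifit3b, Ccn2, Ccn1, Adgre1, Mcub and Azin2; Ctgf and Cyr61 stand for Ccn2 and Ccn1. Genes named by rule were the engineered loci, Ezh2, Fgfr1 to Fgfr4, the 15 largest differences in each direction that passed the test (none did), up to 4 members per list with a 2-fold gap between the nearest libraries (by smallest p), and up to 5 genes per direction that set BNC 6 apart by 4-fold from BNC 4 and 5. All other genes were named after their values were seen. Alternatives were RLE scaling, no filter, BNC 4 and 5 summed, the replicate number as a block, each library left out, and DESeq2 1.42.0. Replicate numbers were not taken as pairs, since nothing in the labels ties the numbers together. Human libraries were not used here. Some list members were counted but are not reported here by name.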

Additional observations from a re-analysis of the deposited data

How the results depend on the processing

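No gene passed an adjusted p of 0.05 with edgeR under RLE scaling, without the filter, with BNC 4 and 5 summed, or with any 1 library left out. At an unadjusted p under 0.05, the 823 genes became 373 with BNC 4 and 5 summed, and 359 to 2624 with 1 library left out, the lowest without BNC 5 (369 without BNC 4) and the highest without BNC 6. Leaving out 1 library gave 1558 to 3459 genes higher in BNC without overlap and 1735 to 3779 lower, and 85 to 445 higher and 296 to 1231 lower with a 2-fold gap. Those counts were largest without NC 4 (3459, 3779 and 1231 genes) and without NC 5 (445 genes higher with a 2-fold gap, and 525 lower). DESeq2 gave 89 genes higher and 213 lower (1260 at an unadjusted p under 0.05). DESeq2 with BNC 4 and 5 summed gave 35 and 56, and without BNC 6 it gave 467 and 835 (2652); these 2 settings, and a term for the libraries with Xist, were chosen after seeing the data. The term for Xist gave 0 genes higher and 1 lower (Ptn, adjusted p = 0.0458), and 1670 genes at an unadjusted p under 0.05. Ezh2 changed sign from -0.05 to 0.03 without BNC 6 (0.036 with DESeq2), to 0.81 without NC 4 (with 1 library left out, its range was -0.59 to 0.81) and to 0.19 with the replicate block. No other of the 125 tested genes named for a group difference changed sign under the 13 alternatives. A gene whose groups do not overlap cannot change sign when a library is left out. For such genes the kept sign follows from that order and is no separate check. Marker and sex-linked genes given for their level alone are not among the 125. Of these, Col1a2 (0.15 to -1.42), Wt1 (0.31 to -0.42), Thbd (-0.10 to 0.48) and Kdm5d (-0.22 to 0.37) changed sign without BNC 6. Counted over genes and alternatives, 202 values passed the threshold with the sign kept and 1418 did not pass it. For why these settings differ, the cause was not tested.

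With the replicate number as a block, edgeR gave 0 genes higher and 1 lower (Peg3, -10.9, adjusted p = 0.0423), and 2116 genes at an unadjusted p under 0.05. Deviations from the group mean correlated at 0.336 between BNC 4 and NC 4 and at -0.306 between BNC 5 and NC 5. With 2 NC libraries these values mirror each other, and the libraries share only a number.

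With 3 and 2 libraries, of which BNC 4 and BNC 5 were nearly alike, and with BNC 6 lacking several mesothelial markers, the spread within BNC is that between 1 close pair and 1 distant library. Depth limits genes with few counts, such as Hoxa6, Cd274, Fgfr4 and Cdkn2a.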

Other observations

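Several listed genes had reads almost only in 1 library and so were not tested. They were chosen after their values were seen. In NC 5, Krt8, which pairs with Krt18 in simple epithelia, had 7395 counts, against 4, 4 and 3 in BNC and 1 in NC 4. Ripk3, the kinase of necroptosis, had 1139 counts in NC 5 and at most 1 in each other library. The interferon-stimulated Oasl1 and Oasl2 had 160 and 139 counts in NC 5 and at most 2 in each other library. Birc3, an inhibitor of apoptosis induced by NF-kB, had 179 counts in NC 5 and at most 1 elsewhere, and the immunoproteasome subunit Psmb8 had 116 in NC 5 and 7 in BNC 6. The mesothelial mucin Muc16 had 107 counts in NC 5, 9 and 7 in BNC 4 and BNC 5 and none in BNC 6 and NC 4. NC 5 was thus the high library for these genes, while NC 4, of the same genotype, had at most 2 counts of each.

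BNC 6 had a different set. The Wnt modulator Sfrp2 had 8536 counts in BNC 6 and at most 6 in each other library. Six2, a homeobox factor of kidney and craniofacial mesenchyme, had 1423 counts in BNC 6 and none elsewhere. The collagen gene Col8a2 had 1885 counts in BNC 6 and at most 10 elsewhere, and Osr2, a factor of mesenchymal development, had 107 and at most 7. Among imprinted genes, H19 had 353 counts and Snrpn 282 in BNC 6, against at most 6 in each other library.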
